A study of Mus musculus with 6 samples.

Results

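The 9 genes described here encode carriers that take organic anions, organic cations and carnitine up into cells. They are Slco1a1, Slco1a4, Slco1b2, Slco2a1, Slco2b1 and Slco3a1 of the organic anion transporting polypeptide family, and Slc22a3, Slc22a5 and Slc22a7 of the organic ion transporter family. They were chosen by symbol, from the rows of the deposited count table whose Ensembl identifier carries 1 of these 9 names, out of 55802 rows. All 9 were found once and all 9 passed the filter on low counts, which left 15579 genes for testing. The libraries were made with an mRNA-seq kit from total RNA of the liver of WT C57BL/6 mice. The CCl4 group (3 libraries) received carbon tetrachloride, a solvent used in rodents to injure the liver and cause fibrosis, and the control group (3 libraries) received oil. The labels give no dose, duration, age or sex, and do not say whether each library came from its own animal, so the p-values rest on how far these libraries differ, which may be technical.

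Bile acids, bilirubin, steroid conjugates, hormones and many drugs reach the hepatocyte from sinusoidal blood, and most of them cross its membrane on a carrier. Organic anion transporting polypeptides work without sodium and exchange one anion for another. Among the Slc22 carriers, the organic cation transporters follow the membrane potential and the carnitine carrier uses the sodium gradient. In mouse liver the Slco1a and Slco1b carriers stand beside the sodium-dependent bile salt carrier Slc10a1, and what they bring in is conjugated and pumped out at the canalicular membrane. Slco1a1 is known in mice as a gene that males express more than females, under the pulses of growth hormone that act through Stat5b.

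Library totals ran from 18929972 to 20042731 counts. Replicates of a group correlated at 0.988 to 0.995 in log2 CPM (counts per 1000000 on the scaled library size). CCl4 replicate 3 stood furthest from its group: its pairs had a chi-square per gene of 20.2 and 25.9, against 5.72 to 12.4 for the other pairs within a group. Of all genes tested with edgeR, 41.3% passed a Benjamini-Hochberg adjusted p of 0.05, 21.2% higher and 20.1% lower in CCl4 livers. For 54.0% of all genes, the CCl4 libraries lay all above or all below the control libraries in CPM. With library size alone as the scaling, the split of calls was 4824 higher and 1676 lower, against 3303 and 3124, and all genes had a median log2 fold change of 0.15. The 12 hepatocyte markers summed to 108002 to 114462 CPM in CCl4 livers and to 108922 to 114944 CPM in control livers, and none of them was at 0 in all libraries. Most of this sum was Alb, at 73971 ± 1664 CPM in CCl4 livers and 71800 ± 3609 CPM in control livers (SD, n = 3 each). Of the 12, 5 were called lower and 2 higher, with a median log2 fold change of -0.32. In bulk liver, fewer cells of a type and less RNA per cell cannot be told apart.

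Of the 9 uptake carriers, 6 were called lower in CCl4 livers, where 20.1% of all genes were. These were Slco1a1, Slco1b2, Slco2b1, Slco2a1, Slc22a3 and Slc22a5. The edgeR test called 0 of the 9 higher, where 21.2% of all genes were, with 0 at an unadjusted p under 0.05 and 0 in DESeq2 or limma-voom. Slco1a4, Slco3a1 and Slc22a7 were not called. The 6 called carriers were also those whose groups did not overlap, where 54.0% of all genes did not. The median log2 fold change was -0.43 over the 9 carriers and 0.00056 over all genes tested. Changes among the 6 called carriers ran from 1.26-fold to 23.6-fold lower.

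**Figure D1:**
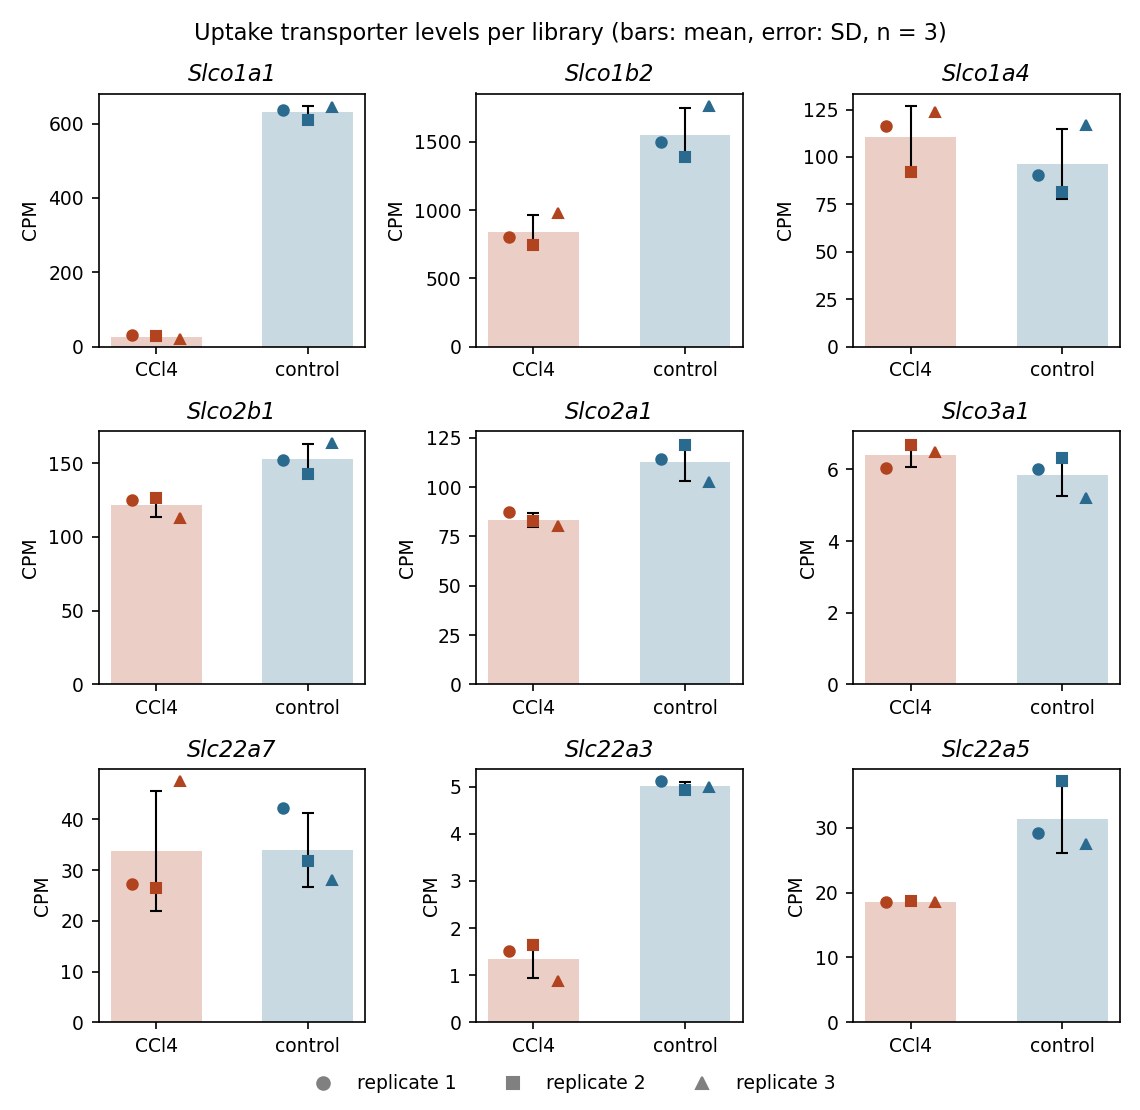
CPM of each carrier in the 3 CCl4 and 3 control libraries, with bars for the mean and error bars for the SD (n = 3), on axes that start at 0. The CCl4 libraries lie below all control libraries for Slco1a1, Slco1b2, Slco2b1, Slco2a1, Slc22a3 and Slc22a5, and the groups overlap for Slco1a4, Slco3a1 and Slc22a7.

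Slco1a1 (ENSMUSG00000041698) encodes a sinusoidal hepatocyte carrier of bile acids, sulfated steroids and other organic anions, and it had the largest change of the 9. It had 598, 590 and 425 counts in CCl4 replicates 1, 2 and 3, against 11975, 11300 and 12156 in the control ones. Scaled, these were 30.1, 29.2 and 20.9 CPM in CCl4 livers and 637.5, 611 and 644 CPM in control livers. All CCl4 libraries lay far below all control libraries, and CCl4 replicate 3 was the lowest of its group. Slco1a1 was 23.6-fold lower in CCl4 livers, with a 95% interval of 18.8 to 29.6 (log2 fold change -4.56, SE 0.14, edgeR adjusted p = 1.04e-06). Its log2 fold change was the 30th lowest of the 15579 genes tested. Between libraries, Slco1a1 varied by 19.1% of its mean in CCl4 livers and by 2.83% in control livers. Nearest to it in profile was Mup21, at a Euclidean distance of 0.66 over the 6 centred log2 CPM values, and then Mup1 at 0.80. Both encode major urinary proteins, a mouse family with near-identical copies whose separate counts are uncertain. Mup21 averaged 4.41 ± 0.46 CPM in CCl4 livers and 104 ± 23.4 CPM in control livers (SD, n = 3 each).

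Slco1b2 (ENSMUSG00000030236) encodes the Oatp1b carrier of mice, a hepatocyte protein that takes up bilirubin, bile acids, statins and the mushroom toxin phalloidin. Per kilobase of exon it was the most abundant of the 9 in every library. It stood at 802, 745 and 978 CPM in CCl4 livers, against 1501, 1389 and 1767 CPM in control livers. The highest CCl4 library stayed under the lowest control library, and replicate 3 was the highest in both groups. Slco1b2 was 1.84-fold lower in CCl4 livers (95% interval 1.52 to 2.24; log2 fold change -0.88, SE 0.12, edgeR adjusted p = 7.16e-04). Closest to it in profile were Gstt2, at a distance of 0.14, and Rmdn2, at 0.15.

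Slco1a4 (ENSMUSG00000030237) encodes a carrier of digoxin, bile acids and steroid conjugates that rodents have in liver and in brain capillaries. It lies on the minus strand of chromosome 6, as Slco1a1 does. Its values were 116, 91.9 and 124 CPM in CCl4 livers and 90.3, 81.8 and 117 CPM in control livers. The groups overlapped, with CCl4 replicate 2 between control replicates 1 and 3. The log2 fold change was 0.20 with a 95% interval of -0.21 to 0.61 (edgeR adjusted p = 0.395). Its nearest profiles were those of Megf9, at a distance of 0.21, and Sult1a1, a sulfotransferase of phenols, at 0.24. Within libraries, the log2 ratio of Slco1a1 to Slco1a4 was -2.06 ± 0.47 in CCl4 livers and 2.73 ± 0.23 in control livers (SD, n = 3 each). Per kilobase of exon, Slco1a1 averaged 5.07 and Slco1a4 17.2 CPM per kb in CCl4 livers, against 120 and 15.0 CPM per kb in control livers, so their order differed between the groups. The difference in log2 ratio was -4.78 (exact two-sided permutation p = 0.1, the smallest that 3 against 3 libraries allow).

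Starts of the 3 carriers on chromosome 6 are shown because the change differed so much between them. The sequences are RefSeq promoter windows on GRCm38.p6, 250 bases before to 50 after the annotated start, written 5′ to 3′ on the gene's own strand. The Slco1a1 window is chr6:141946913-141947212 on the minus strand, that of Slco1a4 is chr6:141856171-141856470 on the minus strand, and that of Slco1b2 is chr6:141629268-141629567 on the plus strand. The sources used here do not give the genome build behind the counts. Capitals mark matches to the motifs searched.
Slco1a1: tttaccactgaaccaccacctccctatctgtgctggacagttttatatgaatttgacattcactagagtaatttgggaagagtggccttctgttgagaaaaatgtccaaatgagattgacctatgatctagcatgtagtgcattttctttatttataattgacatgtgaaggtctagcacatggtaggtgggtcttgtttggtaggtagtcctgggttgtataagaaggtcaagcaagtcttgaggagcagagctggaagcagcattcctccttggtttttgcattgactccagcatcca
Slco1a4: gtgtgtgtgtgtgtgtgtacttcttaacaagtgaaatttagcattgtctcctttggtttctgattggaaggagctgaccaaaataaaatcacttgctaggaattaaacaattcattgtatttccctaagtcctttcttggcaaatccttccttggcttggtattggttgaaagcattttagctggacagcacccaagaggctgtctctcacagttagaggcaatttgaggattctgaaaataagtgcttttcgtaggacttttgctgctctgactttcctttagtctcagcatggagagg
Slco1b2: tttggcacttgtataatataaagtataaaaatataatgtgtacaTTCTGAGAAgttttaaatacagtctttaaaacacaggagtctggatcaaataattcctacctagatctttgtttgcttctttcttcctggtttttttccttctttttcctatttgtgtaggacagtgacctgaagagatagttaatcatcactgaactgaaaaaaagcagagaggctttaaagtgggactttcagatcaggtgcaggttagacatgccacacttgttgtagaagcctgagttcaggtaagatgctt

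Windows of 7 of the 9 carriers were matched by symbol, 9 windows in all because Slco2b1 has 3. Both strands were searched for the STAT5 motif TTCNNNGAA, the C/EBP motif TTGCNNCAA, the HNF4 motif CAAAGTCCA, the antioxidant response element TGACNNNGC and the AP-1 motif TGANTCA. Slco1b2 held TTCTGAGAA, a match to the STAT5 motif, at position -206 from the start. The windows of Slco1a1, Slco1a4, Slco2a1, Slc22a3 and Slc22a5 held none of the 5. Of 32851 windows in the table, 8.30% held the STAT5 motif, 2.08% the C/EBP motif, 0.475% the HNF4 motif, 12.4% the antioxidant response element and 7.81% the AP-1 motif. In a window of Slco2b1, TTGCAGCAA matched the C/EBP motif on both strands at the same bases, and no other match overlapped another within a window. Windows of Slco2b1 held the STAT5 motif (2 of 3), the C/EBP motif (1 of 3) and the AP-1 motif (1 of 3). GC content was 42.0% for Slco1a1, 40.7% for Slco1a4 and 35.3% for Slco1b2, with a median of 52.7% over all windows. It was 52.0% for Slc22a3, 52.3 to 57.0% for the windows of Slco2b1, 64.0% for Slco2a1 and 72.7% for Slc22a5.

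Slco2b1 (ENSMUSG00000030737) encodes a widely expressed carrier of steroid sulfates and drugs. It was 1.26-fold lower in CCl4 livers (95% interval 1.13 to 1.40), the smallest change among the called carriers. Per library it stood at 125, 126 and 113 CPM in CCl4 livers and at 152, 142 and 163 CPM in control livers. CCl4 replicate 3 was the lowest value and control replicate 3 the highest, and the groups did not overlap. The log2 fold change was -0.33 (SE 0.07, edgeR adjusted p = 0.00448), and -0.18 with library size alone as the scaling (adjusted p = 0.0425). Exons of 2 genes on the opposite strand, Gm15635 and Gm34280, overlap it in the annotation, with at most 59 and 15 counts in a CCl4 library and 93 and 19 in a control library. Klhl3 and Plekhg3 were nearest to it in profile, at distances of 0.03 and 0.05. The sources used here do not give the strand setting of the counting.

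Slco2a1 (ENSMUSG00000032548) encodes the prostaglandin transporter, which clears prostaglandins from the extracellular space and is known in vascular endothelium. Its values were 87.5, 82.7 and 80.5 CPM in CCl4 livers, against 114, 121 and 102 CPM in control livers. The groups did not overlap, and the CCl4 libraries lay close together. Slco2a1 was 1.35-fold lower in CCl4 livers (log2 fold change -0.43, 95% interval -0.59 to -0.27, SE 0.07, edgeR adjusted p = 0.00106), and its log2 fold change was -0.29 with library size alone. Atat1 and Ttll4, which modify tubulin, were nearest in profile, each at a distance of 0.07. Of 18 endothelial markers tested, 3 were called higher, 1 lower and 14 not, and the list summed to 517 to 583 CPM in CCl4 livers and to 495 to 535 CPM in control livers. None of these markers was at 0 in all libraries. Cd34, a marker of capillary endothelium, rose by 1.66 on the log2 scale (SE 0.21, edgeR adjusted p = 3.12e-04). The 1 marker called lower was Kdr, a receptor for vascular endothelial growth factor, named after its value was seen (-0.18, adjusted p = 0.0397). The part of these cells in the value of Slco2a1 was not tested.

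Slco3a1 (ENSMUSG00000025790) encodes a broadly expressed carrier of prostaglandins and thyroid hormone, and few reads were counted for it. It had 120, 135 and 132 counts in CCl4 libraries and 113, 117 and 98 in control libraries. In CPM these were 6.05, 6.68 and 6.49 in CCl4 livers and 6.02, 6.32 and 5.20 in control livers, and the groups overlapped. The log2 fold change was 0.13 with a 95% interval of -0.15 to 0.41 (edgeR adjusted p = 0.429). The nearest profiles were those of Mthfsd, at a distance of 0.08, and Mospd1, at 0.09.

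Slc22a3 (ENSMUSG00000023828) encodes organic cation transporter 3, a carrier of monoamines such as noradrenaline, serotonin and histamine. It was scarce in every library, with 30, 33 and 18 counts in CCl4 livers and 96, 91 and 94 in control livers. Its values were 1.51, 1.63 and 0.884 CPM in CCl4 livers, against 5.11, 4.92 and 4.98 CPM in control livers. The control libraries lay close together and the CCl4 libraries lay well under them, with CCl4 replicate 3 the lowest. Slc22a3 was 3.72-fold lower in CCl4 livers (95% interval 2.65 to 5.22; log2 fold change -1.89, SE 0.22, edgeR adjusted p = 1.60e-04). Its nearest profiles were those of Mapk15, at a distance of 0.24, and of the complement gene C6, at 0.33. In the annotation Slc22a3 shares exon sequence on the opposite strand with Plg, the gene of plasminogen. Plg averaged 1999 ± 154 CPM in CCl4 livers and 2144 ± 91.3 CPM in control livers (SD, n = 3 each; log2 fold change -0.10, adjusted p = 0.31), and whether its reads entered the counts of Slc22a3 was not tested.

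Slc22a5 (ENSMUSG00000018900) encodes the sodium-dependent carnitine transporter, which supplies the carnitine that carries long-chain fatty acids into mitochondria. It stood at 18.6, 18.8 and 18.5 CPM in CCl4 livers and at 29.2, 37.1 and 27.4 CPM in control livers. The CCl4 libraries were almost equal, while control replicate 2 lay above the other controls, and the groups did not overlap. Slc22a5 was 1.68-fold lower in CCl4 livers (95% interval 1.42 to 1.99; log2 fold change -0.75, SE 0.11, edgeR adjusted p = 6.12e-04). Gbp7 and Ankrd33b lay nearest to it in profile, at distances of 0.10 and 0.15.

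Slc22a7 (ENSMUSG00000067144) encodes organic anion transporter 2, a sinusoidal carrier of small organic anions and nucleotides. The values were 27.4, 26.5 and 47.5 CPM in CCl4 livers and 42.2, 31.8 and 28.0 CPM in control livers. CCl4 replicate 3 was the highest of the 6 libraries and the other CCl4 libraries were the lowest, so the groups overlapped. The log2 fold change was -0.01 with a 95% interval of -0.79 to 0.77 (edgeR adjusted p = 0.985), the widest interval of the 9. Without CCl4 replicate 3 it was -0.34 (adjusted p = 0.205). Its nearest profiles were those of Ncdn and Bhmt-ps1, at distances of 0.35 and 0.40, and both of these changed sign without that library.

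**Figure D2:**
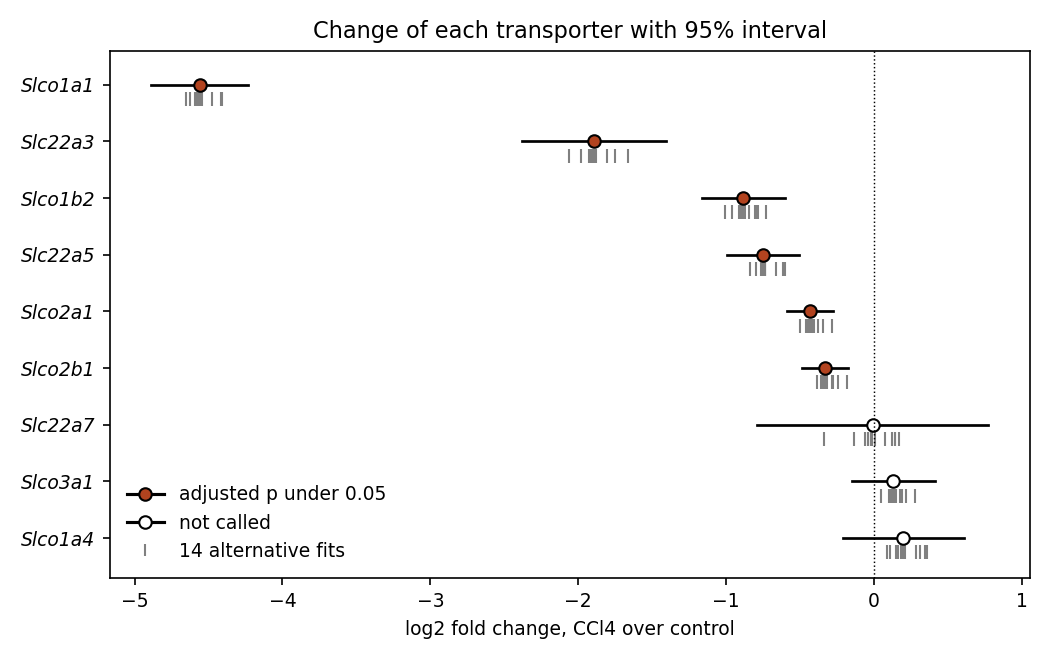
Log2 fold change (CCl4 over control) of each carrier with its 95% interval, filled where the edgeR adjusted p was under 0.05. Grey marks are the values under the 14 alternative fits, and those of Slco1a1 stay between -4.65 and -4.41 while those of Slc22a7 fall on both sides of 0.

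Levels were compared between genes as CPM per kilobase of annotated exon, with the union of exons in GENCODE M21 as the length. Slco1b2 came first in both groups, at 171 ± 24.6 CPM per kb in CCl4 livers and 315 ± 39.5 CPM per kb in control livers (SD, n = 3 each). In control livers Slco1a1 was second at 120 ± 3.39 CPM per kb, above Slco2b1 at 25.6 ± 1.76. Slc22a7 and Slco1a4 overlapped below these, as did Slc22a5 and Slco2a1, and Slc22a3 and Slco3a1 came last. In CCl4 livers Slco1a1 was seventh at 5.07 ± 0.97 CPM per kb, with all its values under those of Slc22a5 and Slco2a1, which overlapped. Slco2b1, Slco1a4 and Slc22a7 overlapped next after Slco1b2 in CCl4 livers, and Slco3a1 lay above Slc22a3.

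The sum of the 9 levels was 234, 218 and 276 CPM per kb in CCl4 livers, against 505, 472 and 558 in control livers, so its mean was 52.5% lower in CCl4 livers. Without Slco1a1 the mean of the sum was 39.4% lower. Slco1a1 made up 2.14 ± 0.61% of the sum in CCl4 livers and 23.5 ± 1.38% in control livers. Slco1b2 made up 70.2 ± 1.42% in CCl4 livers and 61.4 ± 2.49% in control livers. The shares of Slco1a4 were 7.09 ± 0.59% in CCl4 livers and 2.92 ± 0.31% in control livers, although its own level was not called different. Shares of a sum depend on each other, and the union of exons, 13545 bases for Slco2a1, can exceed the transcript expressed, which lowers a value per kb.

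**Figure D3:**
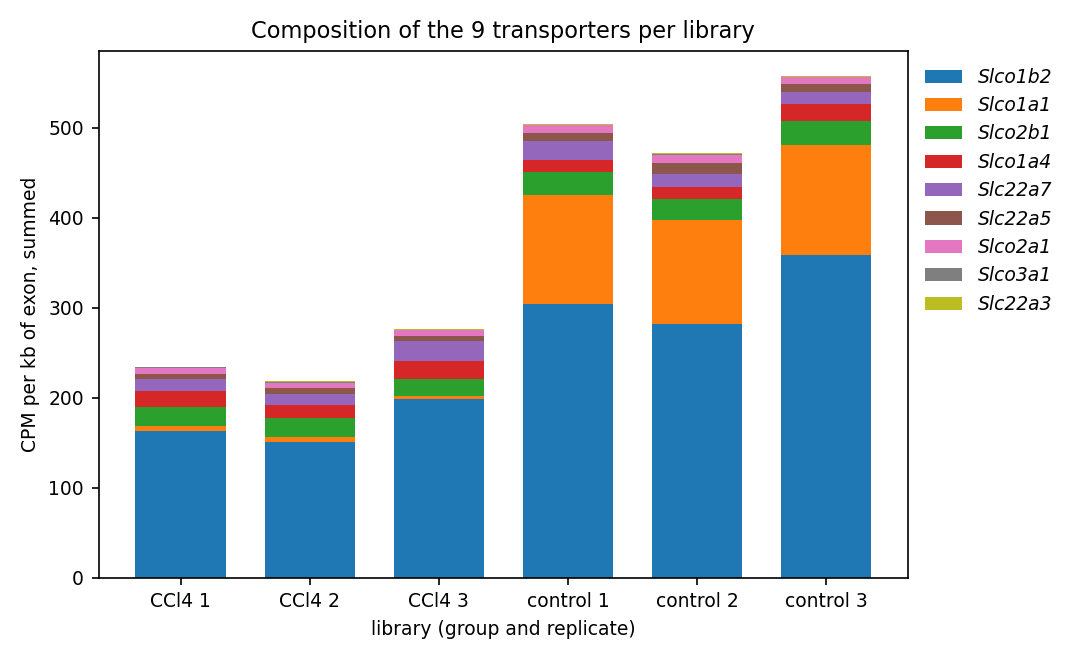
Stacked CPM per kilobase of exon of the 9 carriers in each CCl4 and control library. The sums are 218 to 276 in CCl4 livers and 472 to 558 in control livers, with Slco1b2 the largest part of every bar and Slco1a1 second in control livers.

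All 36 pairs of carriers were compared by their within-library log2 ratio. The groups were separated for 26 pairs and not for 10. With 3 libraries against 3, the exact permutation p cannot fall under 0.1, and the smallest value adjusted over the 36 pairs was 0.139, so no pair could pass. Every ratio with Slco1a1 on top was lower in all CCl4 libraries. The log2 ratio of Slc22a3 to Slc22a5 was -3.84 ± 0.47 in CCl4 livers and -2.63 ± 0.25 in control livers (difference -1.21, exact two-sided permutation p = 0.1). The ratio of Slco1b2 to Slc22a5 overlapped between the groups, with a difference of -0.15.

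The other 9 Slco genes listed were nearly silent. All 9 were under the filter on low counts, and together they held 0.544 to 1.11 CPM in CCl4 livers and 0.426 to 0.954 CPM in control livers. Among them were the close relatives of Slco1a1, Slco1a5 and Slco1a6, which had at most 1 count in a library. Of 22 other Slc22 genes, 12 were tested, 6 were called lower and 2 higher, with a median log2 fold change of -0.37 beside 0.00056 over all genes. Slc22a4, the ergothioneine carrier, fell by 1.39 on the log2 scale (edgeR adjusted p = 2.52e-04). Slc22a28 (-3.99) and Slc22a30 (-1.11) were called lower and Slc22a26 (2.76) and Slc22a27 (3.47) higher. Slc22a26 to Slc22a30 are close relatives, so reads that match several of them make their separate values uncertain. The call of Slc22a27 was lost in limma-voom (adjusted p = 0.0549) and without control replicate 2 (adjusted p = 0.051).

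Efflux and bile salt carriers moved in both directions. Of 18 tested, 11 were called lower and 5 higher, and the median log2 fold change was -0.40. Abcg8, a subunit of the canalicular sterol pump, had the smallest adjusted p among the lower ones (log2 fold change -2.09, SE 0.11, edgeR adjusted p = 6.40e-06), and Abcc4, a basolateral efflux pump, among the higher ones (2.03, SE 0.26, adjusted p = 8.54e-04). Slc10a1, the sodium-dependent bile salt uptake carrier, averaged 490.5 ± 56.0 CPM in CCl4 livers and 665 ± 82.7 CPM in control livers (SD, n = 3 each; log2 fold change -0.44, adjusted p = 0.0108). It was named after its values were seen, for comparison with Slco1b2.

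Of 26 transcription factors, receptors and a receptor-bound kinase (Jak2) listed as regulators of such carriers, 12 were called lower and 2 higher, with a median log2 fold change of -0.24. Ppara, a nuclear receptor for fatty acids, was 50.4 ± 2.84 CPM in CCl4 livers and 122 ± 9.74 CPM in control livers (SD, n = 3 each; log2 fold change -1.27, edgeR adjusted p = 3.91e-06). Nfe2l2, which drives antioxidant genes, rose by 0.34 (adjusted p = 0.00118). Named after their values were seen were the growth hormone receptor Ghr (-0.95, adjusted p = 9.70e-06) and its downstream factor Stat5b (-0.55, adjusted p = 1.77e-04). So were the xenobiotic receptors Nr1i3 (-0.96, adjusted p = 2.68e-05) and Nr1i2 (-0.40, adjusted p = 5.68e-04). The other 12 of the 26 were not called. Among these, also named after their values were seen, were Jak2 (-0.12, adjusted p = 0.431), Hnf4a (-0.19, adjusted p = 0.0517) and Nr1h4 (-0.04, adjusted p = 0.726). The part of the listed regulators in the change of the carriers was not tested.

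Male-biased and female-biased liver genes were listed because Slco1a1 is known as male-biased in mice. All 15 male-biased genes listed were called lower, with a median log2 fold change of -3.23, beside -4.56 for Slco1a1. They summed to 2052 to 4665 CPM in CCl4 livers and to 17951 to 22698 CPM in control livers. Ugt2b1, a glucuronosyltransferase, had the smallest adjusted p of them (-1.51, SE 0.06, edgeR adjusted p = 8.31e-07). Of 16 female-biased genes listed, 9 were tested, and 4 were called higher and 5 not called, with a median of 1.75. They summed to 164 to 282 CPM in CCl4 livers and to 29.2 to 30.2 CPM in control livers. Cyp2a4, a steroid hydroxylase with a near-identical relative, rose by 5.24 (SE 0.48, adjusted p = 0.00114). The lists were written with earlier results of these libraries known, and Mup21, Mup1 and C6 stand on the male-biased one. The sex of the mice is not in the labels.

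Genes that handle what the carriers bring in were counted by pathway. For Slc22a5, 13 genes of carnitine use and fatty acid oxidation were tested, with the oxidation genes Acadm, Acadl and Acadvl among them. Of these 13, 4 were called lower, Acadvl among them, and 1 higher (median log2 fold change -0.09). Aldh9a1, an enzyme of carnitine synthesis, fell by 0.50 (edgeR adjusted p = 2.79e-04), and Crat, carnitine acetyltransferase, rose by 0.49 (adjusted p = 0.0456). Crat was no longer called when all genes with a count were tested (adjusted p = 0.192) and without any of CCl4 replicates 1, 2 and 3 or control replicate 3 (adjusted p 0.0919 to 0.147). Of 15 tested genes of prostaglandin synthesis, breakdown and reception, the pathway of Slco2a1, 7 were called higher and 3 lower (median 0.50). Hpgds, a prostaglandin D synthase of haematopoietic cells, rose by 2.86 (adjusted p = 2.26e-06), and Hpgd, which inactivates prostaglandins after uptake, fell by 0.52 (adjusted p = 0.00126). Of 7 tested genes that handle monoamines and organic cations, the substrates of Slc22a3, 3 were called lower and 1 higher (median -0.19). The thiamine carrier Slc19a2 fell by 1.00 (adjusted p = 2.44e-05), and Maoa, a monoamine oxidase, rose by 0.33 (adjusted p = 0.0274), a call lost in DESeq2 (adjusted p = 0.107) and without CCl4 replicate 3, control replicate 1 or control replicate 2 (adjusted p 0.0644 to 0.1075).

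**Figure D4:**
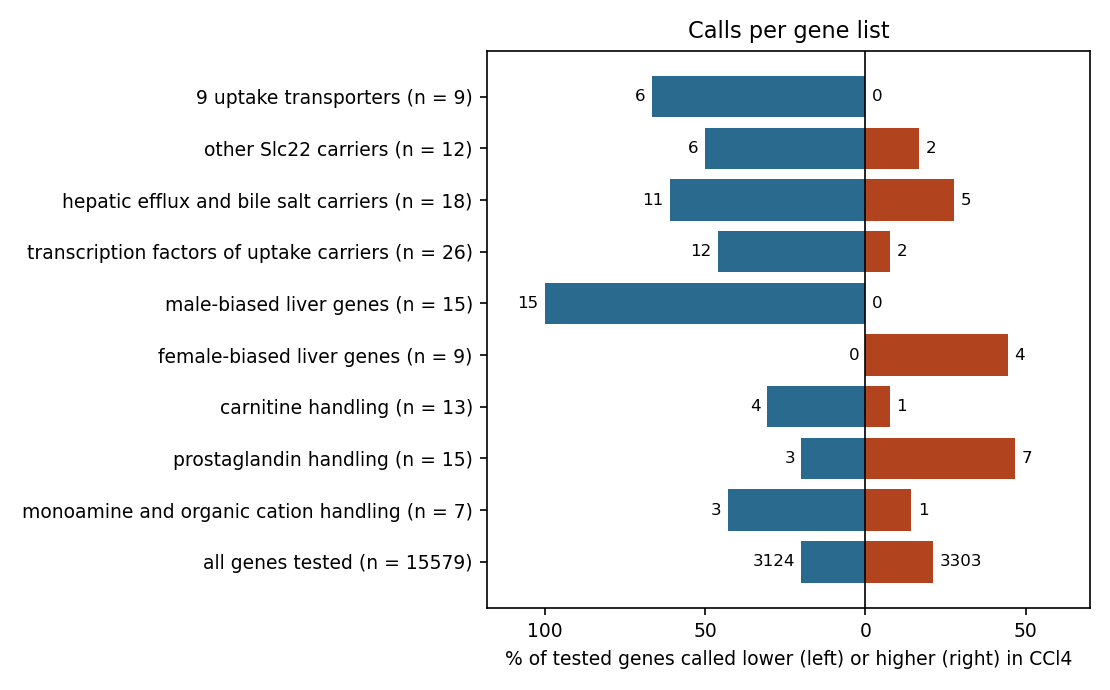
Share of the tested genes of each list called lower (bars to the left) or higher (bars to the right) in CCl4 livers, with the number of genes at the bar end. Among the 9 uptake carriers 6 were lower, and among all 15579 genes 3124 were lower and 3303 higher.

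Markers of liver cell types moved beside the carriers, and their part in the carriers' values was not tested. Of 12 pericentral hepatocyte markers, 8 were lower and 2 higher, and the list summed to 2662 to 3900 CPM in CCl4 livers and to 10569 to 11319 CPM in control livers. Glul, the pericentral glutamine synthetase, changed by -3.57 (edgeR adjusted p = 6.38e-07). Of 12 periportal markers, 3 were lower and 2 higher (10720 to 11086 CPM in CCl4 livers, 12069 to 12604 CPM in control livers), with Hsd17b13 at 0.71 (adjusted p = 1.40e-04). Among 12 general hepatocyte markers, 5 were lower and 2 higher, with Tdo2 at -0.58 (adjusted p = 1.08e-04). Macrophage and Kupffer cell markers were higher for 14 of 17 and lower for 1 (1508 to 1589 CPM in CCl4 livers, 489 to 650.4 CPM in control livers), with Trem2 at 4.96 (adjusted p = 8.30e-07). Of 14 stellate cell and fibroblast markers, 11 were higher (1311 to 1408 CPM in CCl4 livers, 404 to 476 CPM in control livers), with Col3a1 at 2.84 (adjusted p = 2.89e-05). The median log2 fold change was -0.81 over the pericentral, 0.06 over the periportal, -0.32 over the general hepatocyte, 1.33 over the macrophage and 1.13 over the stellate list. None of the markers of these 5 lists was at 0 in all libraries. Of 11 tested cholangiocyte markers, 7 were higher (382 to 483 CPM in CCl4 livers, 157.5 to 197 CPM in control livers), with Prom1 at 2.66 (adjusted p = 1.14e-04). Most of this sum in CCl4 livers was Spp1, which also stands on the macrophage list and was named after its values were seen. Spp1 held 224 to 303 CPM in CCl4 livers and 41.8 to 76.3 CPM in control livers. Of 10 tested lymphocyte and neutrophil markers, 3 were higher (25.9 to 30.3 CPM in CCl4 livers, 14.5 to 17.8 CPM in control livers), with S100a8 at 1.75 (adjusted p = 4.66e-05). All 14 cell cycle markers were higher (177 to 330 CPM in CCl4 livers, 45.4 to 54.9 CPM in control livers), with Ccnb2 at 4.46 (adjusted p = 3.95e-05) and CCl4 replicate 3 the lowest of its group. Red blood cell genes were higher for 4 of 5 tested and lower for Alas2 (-0.90, adjusted p = 1.32e-04). Of 14 listed markers of pancreas, gut, kidney and fat, 10 were under the filter on low counts, with Cpa1 and Pnlip among them. Prss1, Ins2 and Slc12a1 were at 0 in all libraries. Of the 4 tested, 3 were lower, with Cela1 at -1.39 (adjusted p = 5.86e-06). For this list every CCl4 library summed to less than any control library. The lowest sums were 45.6 CPM in CCl4 livers and 76.6 CPM in control livers. Whether the reads of the 4 tested genes came from such tissue was not tested.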

How the data were processed

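Messenger RNA was measured in 3 CCl4 and 3 control liver libraries, and groups and replicate numbers were taken from the sample titles. The authors deposited raw counts per gene, made with HISAT2 and featureCounts per the submitters' processing notes, after adapters and low-quality reads were removed per the series' design text. Versions, genome build, annotation, strand setting and handling of multiply matching reads were not stated (not given in the sources used here). Rows without an Ensembl identifier (443) held 0.543 to 0.679% of the counts and were kept in the fit. Symbols and exon lengths came from GENCODE M21, which matched 52083 of 55359 Ensembl identifiers.

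Counts were filtered with filterByExpr, scaled by TMM and tested over all 15579 genes with edgeR 4.0.16 (quasi-likelihood, robust, Benjamini-Hochberg) in R 4.3.3. Each SE was taken as the absolute log2 fold change divided by √F, with 95% intervals from the t distribution. The script was tested on simulated counts. Alternatives used DESeq2 1.42.0, limma-voom (limma 3.58.1), 3 other scalings, 2 other filters, a replicate block and each library left out.

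Members, the 20 gene lists and the tests were chosen with earlier results of these data known. Named were all members, the 2 tested genes of at least 10 CPM with the nearest profile to each (log2 of CPM plus 0.5), and the gene of smallest adjusted p per list, in each direction for pathway lists, and up to 6 called Slc22 genes. Some genes and a motif under these rules are not reported here. Intervals cover the spread between libraries, and PCR copies could not be recognised.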

Additional observations from a re-analysis of the deposited data

How the results depend on the processing

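Across 14 alternatives, 6 carriers were called lower in each. None was called higher except under the replicate block, where 1 was, Slco1a4 (0.20, adjusted p = 0.0411). The block is set by the number in the titles alone, and the labels do not say that same-numbered libraries belong together. Deviations of same-numbered libraries correlated at 0.06, 0.02 and 0.09, and those of differently numbered ones at -0.10 to 0.04. Each deviation was taken from the mean of its own group, so positive values for some pairs bring negative values for others. The contrast between the same-numbered and the other pairs is thus partly fixed in advance. Whether the numbers mark a shared batch was not tested. The fit with the block gave 3298 higher and 3118 lower calls over all genes, against 3303 and 3124. With library size alone 1676 genes were called lower and 4824 higher, and with upper quartile scaling 2177 and 4103, where the medians of all genes were 0.15 and 0.09. Leaving out 1 library gave 2706 to 3305 higher and 2443 to 3103 lower calls.

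The log2 fold change of Slc22a7, -0.01, changed sign with library size alone (0.14), upper quartile scaling (0.0775) and the stricter filter (0.00493), and ran from -0.34 to 0.17 when 1 library was left out. Over the libraries left out, Ncdn ran from -0.26 to 0.27 and Bhmt-ps1 from -0.22 to 0.36, both below 0 only without CCl4 replicate 3. The cause was not tested. Of 784 values (56 genes taken by the naming rule under 14 alternatives), 753 kept direction and call, 17 lost the call, 6 gained it and 8 changed sign. The fewest counts behind a carrier were those of Slc22a3 (18 to 33 in CCl4 libraries, 91 to 96 in control libraries), which was called lower in 14 of 14 alternatives.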
